A study of Mus musculus with 6 samples.

Results

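MHC class I molecules display peptides cut from intracellular proteins, and 10 genes of this route were followed in activated mouse CD8+ T cells that were cultured with or without trans-vaccenic acid (TVA), which is a dietary fatty acid from ruminant meat and milk. The genes were chosen by symbol, from their known roles, with earlier results of these data known. All 10 were found among the 24589 gene symbols of the table. They were H2-K1 and H2-D1, B2m, Psmb8, Psmb9 and Psmb10, Tap1 and Tap2, Tapbp, and Nlrc5. Primary cells of WT genotype were isolated by magnetic beads from spleen and lymph nodes of C57BL/6 mice and activated through CD3 and CD28, which all libraries share, and were then kept for 24 h in 20 µM TVA or in DMSO, the solvent. Each group had 3 bulk RNA-seq libraries, and the study's methods put its mice, of both sexes, at 7 to 12 weeks of age. The sources used here do not say whether the libraries came from separate animals or cultures, so that p-values measure only the spread between these libraries, which may be technical. The expression unit is TPM, the transcript abundance per length scaled to a common total in each library.

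In the class I route, the proteasome cuts proteins into peptides, and in lymphocytes interferon-inducible catalytic subunits replace the constitutive ones to form the immunoproteasome. The transporter TAP moves the peptides into the endoplasmic reticulum, where tapasin and partner chaperones help load them onto a heavy chain paired with β2-microglobulin. The loaded molecule travels to the cell surface and is read by the receptor of CD8+ T cells, which carry class I molecules themselves. NLRC5 acts in the nucleus as the class I transactivator. It joins a complex of RFX, CREB/ATF and NF-Y proteins on the class I promoter, beside elements that bind NF-κB and interferon regulatory factors.

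Of the 10 genes, 7 lie on mouse chromosome 17, 2 on chromosome 8 (Psmb10 and Nlrc5) and 1 on chromosome 2 (B2m), in RefSeq coordinates of GRCm38.p6. H2-K1 spans chr17:33996012-34000619 and H2-D1 chr17:35263094-35267497, with the other 5 between them or, for Tapbp, before. Psmb9, Tap1, Psmb8 and Tap2 follow each other within 34292 bases (chr17:34182030-34216321), and only 225 bases separate Psmb9 from Tap1, which are read in opposite directions. RefSeq promoter windows, from 250 bases before to 50 bases after the annotated start, were found for 8 of the 10 genes. The windows below are shown because the heavy chain genes have near-identical promoters and because Tap1 and Psmb9 share most of theirs. Capitals mark matches, on either strand, to the enhancer A core bound by NF-κB (an 11-base palindrome from GGGG to CCCC), to the core of the CREB/ATF site (TGACG), to the NF-Y box (CCAAT), to the interferon response element (GAAA, any 2 bases, GAAA) and to a shorter form of it (GAA, any 2 bases, GAAA). A match to the shorter form was not part of a match to the longer. The windows lie at chr17:34000298-34000597, minus strand, for H2-K1, at chr17:35262844-35263143, plus strand, for H2-D1, at chr2:122147437-122147736, plus strand, for B2m and at chr17:34187306-34187605, plus strand, for Tap1.
H2-K1: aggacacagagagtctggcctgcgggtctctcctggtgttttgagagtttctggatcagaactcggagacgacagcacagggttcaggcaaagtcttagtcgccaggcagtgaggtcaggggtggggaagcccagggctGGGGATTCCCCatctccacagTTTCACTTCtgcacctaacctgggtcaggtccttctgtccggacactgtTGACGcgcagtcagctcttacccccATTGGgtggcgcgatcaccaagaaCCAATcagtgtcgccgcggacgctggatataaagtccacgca
H2-D1: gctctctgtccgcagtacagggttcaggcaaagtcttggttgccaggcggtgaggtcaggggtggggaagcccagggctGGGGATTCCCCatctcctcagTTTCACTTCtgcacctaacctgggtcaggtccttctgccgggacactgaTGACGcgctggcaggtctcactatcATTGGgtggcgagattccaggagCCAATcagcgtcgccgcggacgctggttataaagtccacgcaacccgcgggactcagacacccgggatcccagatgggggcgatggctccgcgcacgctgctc
B2m: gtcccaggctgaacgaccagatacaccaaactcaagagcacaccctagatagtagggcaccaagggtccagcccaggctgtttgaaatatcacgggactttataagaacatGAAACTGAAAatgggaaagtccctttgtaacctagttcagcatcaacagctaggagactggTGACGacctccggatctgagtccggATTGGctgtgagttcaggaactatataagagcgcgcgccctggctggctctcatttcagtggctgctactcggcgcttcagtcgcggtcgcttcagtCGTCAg
Tap1: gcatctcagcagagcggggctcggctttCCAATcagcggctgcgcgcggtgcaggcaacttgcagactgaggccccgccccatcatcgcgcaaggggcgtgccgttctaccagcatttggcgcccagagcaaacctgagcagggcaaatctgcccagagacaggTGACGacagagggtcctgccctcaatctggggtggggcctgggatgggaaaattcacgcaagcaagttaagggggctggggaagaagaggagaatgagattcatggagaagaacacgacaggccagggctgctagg

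The H2-K1 and H2-D1 windows were 88.3% identical over 239 aligned bases and held the same motifs in the same order. The enhancer A core began 111 bases before the annotated start of H2-K1 and 171 bases before that of H2-D1, and the listed start of H2-K1 was the first of 2 in RefSeq. This core was present in 2 of the 8 windows and in 0.0222% of 27025 RefSeq promoter windows of the same length. The CREB/ATF core was present in 5 of the 8 windows, against 21% of all windows, and CCAAT in 6 of 8, against 37.9%. The longer interferon element was found in 1 of the 8, that of B2m, against 3.49% of all windows, and the shorter in 2, those of H2-K1 and H2-D1, against 7.56%. The windows of Tap1 and Psmb9 overlap by 275 bases on opposite strands, so their CREB/ATF and CCAAT matches are the same bases. These matches describe letters in a window and were not tested for binding.

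The level of the class I transcripts in CD8+ T cells spanned from 60.3 TPM for Nlrc5 to 3495 TPM for B2m, as means over the 6 libraries. B2m ranked 56th of the 10866 genes tested and was followed by H2-K1 at 1634 TPM and H2-D1 at 1156 TPM. Psmb8 at 434 TPM and Psmb9 at 258 TPM came next, then Tap1 at 189, Tapbp at 158 and Tap2 at 147 TPM. Psmb10, at 62.5 TPM, and Nlrc5 closed the order. Every gene lay above the next in 6 of 6 libraries, except Psmb10, which exceeded Nlrc5 in 4 of 6, so that these neighbours did not differ beyond their spread. The step between neighbours was largest from H2-D1 to Psmb8, at 2.67 times, and smallest from Psmb10 to Nlrc5, at 1.04 times. The heavy chain levels carry an uncertainty of assignment, since 9.6% of the 50-base stretches of H2-K1 transcripts and 12.8% of those of H2-D1 also occur in transcripts of other genes, and reads from such stretches may be divided among them. These shares may be too low, because the transcript set used had no entry for H2-L, H2-Q8, H2-Q9 and H2-T9.

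**Figure D1:**
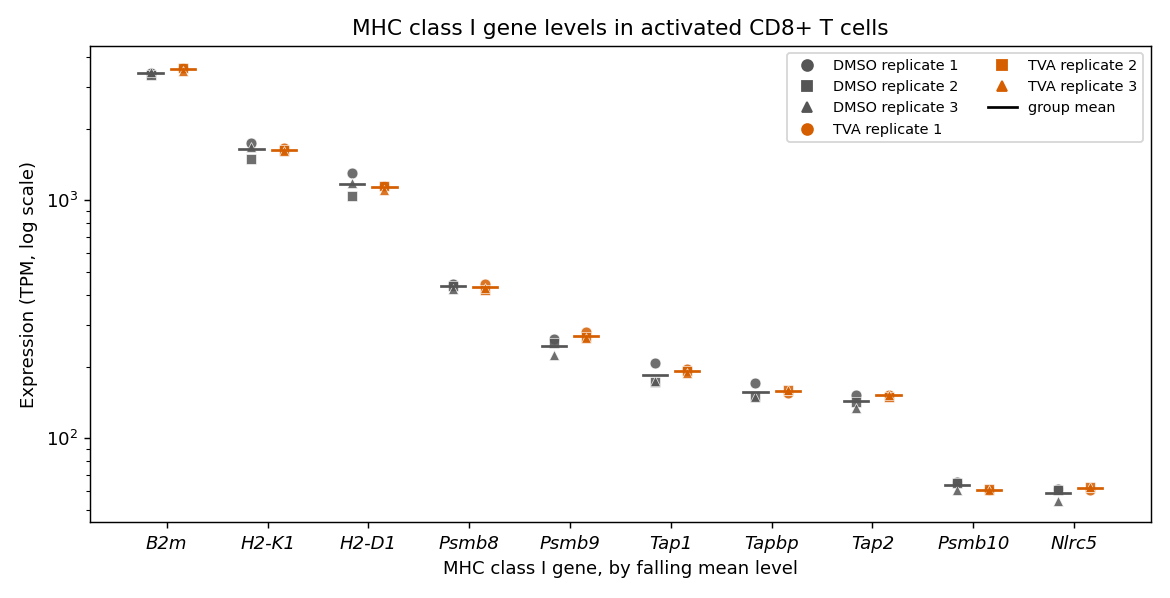
TPM, on a log axis, of the 10 class I genes in each of the 3 DMSO and 3 TVA libraries; points are libraries and bars are group means. B2m is highest at 3349 to 3612 TPM, Nlrc5 and Psmb10 lie together at 54.8 to 65.8 TPM, and the groups overlap for 8 of the 10 genes, B2m and Psmb9 being the exceptions.

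The first question was whether 24 h in TVA changed the level of these transcripts. None of the 10 passed the threshold of an adjusted p of 0.05 in limma, a linear model with moderated variances fitted to log2(TPM + 1) of 10866 genes, against 8.51% of all genes tested. At an unadjusted p under 0.05 the count was also 0 of 10, against 31.8% of all genes tested. TVA was higher for 6 genes and lower for 4 (5 and 5 with median-of-ratios or quantile scaling, where Tapbp turned), and the median log2 change of the 10 was 0.036, beside 0.039 over all genes tested. Changes are on the log2(TPM + 1) scale, which understates those of low genes. The TVA and DMSO libraries did not overlap for 2 of the 10, both higher with TVA, where 27.3% of all genes tested did the same and 38.6% did so in either direction.

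The transactivator Nlrc5 was at 61.1, 60.8 and 54.8 TPM in DMSO replicates 1 to 3 and at 60.6, 62.4 and 62.3 TPM in the TVA replicates. The groups overlapped, with only DMSO replicate 3 apart from the other libraries. The means were 58.9 ± 3.54 and 61.8 ± 1 TPM (SD, n = 3), 0.07 higher with TVA on the log2 scale (SE 0.050, limma adjusted p = 0.37).

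The heavy chains carry the peptide groove. H2-K1 was at 1744, 1497 and 1672 TPM with DMSO and at 1652, 1634 and 1607 TPM with TVA, all 3 TVA libraries lying inside the DMSO range. Its log2 change was -0.003, with a 95% interval of -0.14 to 0.13 (limma adjusted p = 0.98). H2-D1 showed the same arrangement, at 1306, 1044 and 1179 TPM with DMSO and at 1145, 1151 and 1111 TPM with TVA. TVA minus DMSO was -0.05 on the log2 scale, with an interval of -0.22 to 0.13 (limma adjusted p = 0.71). For both heavy chains DMSO replicate 1 was the highest and DMSO replicate 2 the lowest of the 6 libraries.

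B2m encodes β2-microglobulin, the light chain shared by all class I molecules. It was at 3438, 3349 and 3466 TPM with DMSO and at 3598, 3612 and 3510.1 TPM with TVA, so that every TVA library lay above every DMSO library. The means were 3417 ± 61.1 and 3573 ± 55.4 TPM (SD, n = 3). The log2 change of 0.06 (interval -0.03 to 0.15) did not pass the test (limma adjusted p = 0.28).

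Among the immunoproteasome subunits, Psmb9 (LMP2, which replaces Psmb6) was at 261, 251 and 225 TPM with DMSO and at 279.6, 266 and 264 TPM with TVA, without overlap. The log2 change was 0.14 (interval -0.00 to 0.27) with an unadjusted p of 0.051 and an adjusted p of 0.16 in limma. Without DMSO replicate 3, the lowest library, it was 0.075, with an adjusted p of 0.29. Psmb8 (LMP7, which replaces Psmb5) was at 447, 435 and 426 TPM with DMSO and at 444, 421 and 428 TPM with TVA. Its groups overlapped, with a log2 change of -0.02 and an interval of -0.11 to 0.07 (limma adjusted p = 0.78). Psmb10 (MECL-1, which replaces Psmb7) was at 65.8, 65.2 and 61 TPM with DMSO and at 60.8, 61.2 and 61 TPM with TVA. DMSO replicate 3 lay among the TVA libraries, and the log2 change was -0.07 (interval -0.16 to 0.03, limma adjusted p = 0.29).

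The transporter subunits Tap1 and Tap2 had intervals that included 0. Tap1 was at 208, 173 and 174 TPM with DMSO and at 196, 193 and 189 TPM with TVA, where DMSO replicate 1 lay above and the other two DMSO libraries below the TVA group. The fitted log2 change was 0.06 (interval -0.10 to 0.23, limma adjusted p = 0.56). Without DMSO replicate 1 the change was 0.15 and passed the threshold (limma adjusted p = 0.036), beside 8.7% of all genes tested in that fit. Tap2 was at 153, 142 and 134 TPM with DMSO and at 153, 149.8 and 153 TPM with TVA, which overlapped through DMSO replicate 1. Its log2 change was 0.09 (interval -0.03 to 0.20, limma adjusted p = 0.26). Tapbp, which encodes tapasin, the bridge between TAP and the heavy chain, was at 171, 151 and 150.0 TPM with DMSO and at 156, 159 and 159 TPM with TVA, a log2 change of 0.01 (interval -0.12 to 0.14, limma adjusted p = 0.92).

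Across the 10 genes the interval bounds ran from -0.22 to 0.27, and those of 9 genes lay within 0.25 of 0 on the log2 scale. The median interval width was 0.24, beside 0.27 over all genes tested. For scale, the 925 genes past the threshold had a median change of 0.28 in absolute value.

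**Figure D2:**
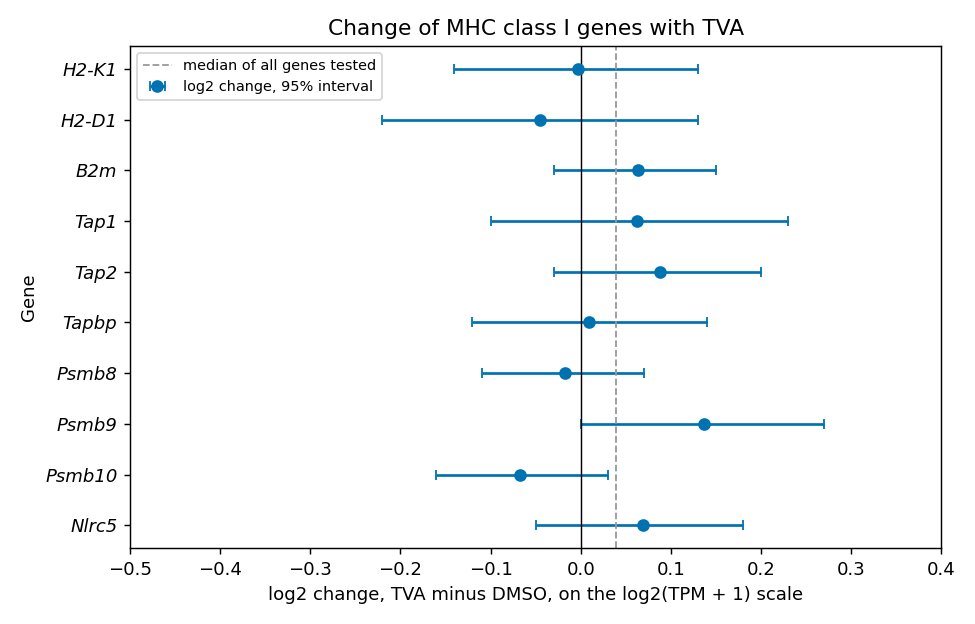
Fitted log2 change (TVA minus DMSO, on the log2(TPM + 1) scale) of the 10 class I genes; points are limma estimates, bars their 95% intervals, and the dashed line the median of all genes tested, at 0.039. Every interval includes 0, with Psmb9 at the edge and H2-D1 and Tap1 the widest.

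In the table as a whole the change of a gene was related to its transcript GC content, with a Spearman correlation of -0.4 across genes, which are not independent replicates. The class I transcripts were GC-rich, 9 of the 10 lying above the median of 50.4% for genes tested, and B2m lying below at 41.2%. With a loess correction for GC, Tap2 was at a log2 change of 0.17 and passed the threshold (limma adjusted p = 0.029), and Psmb9 was at 0.17 with an adjusted p of 0.0502, where 10.3% of all genes tested passed. The sign turned for B2m, then at -0.026, for H2-K1, at 0.036, and for Psmb10, at 0.023.

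The spread of these genes was larger among the DMSO libraries than among the TVA libraries. For 9 of the 10 the log2 range within DMSO exceeded that within TVA, as it did for 74.3% of all genes tested. H2-D1 spanned 0.32 within DMSO and 0.05 within TVA, Tap1 0.26 and 0.06, and H2-K1 0.22 and 0.04. Psmb8 was the exception, at 0.07 and 0.08. For 9 of the 10 the range within DMSO was also larger than the difference between the group means. DMSO replicate 1 was the highest of the 6 libraries for 6 of the 10 genes, whereas DMSO replicates 2 and 3 were each the lowest for 4. The genes did not order the DMSO libraries alike: the heavy chains were lowest in replicate 2, but Psmb9, Tap2 and Nlrc5 in replicate 3.

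**Figure D3:**
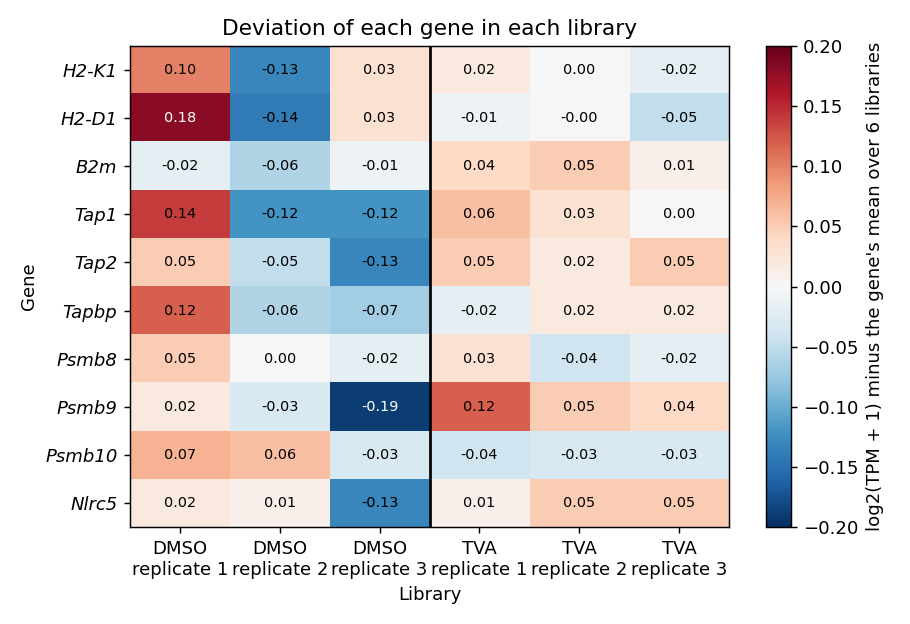
Deviation of each class I gene in each library from that gene's mean over the 6 libraries, on the log2(TPM + 1) scale; red is above the mean and blue below. The DMSO columns range from 0.18 (H2-D1, replicate 1) to -0.19 (Psmb9, replicate 3), and the TVA columns are paler.

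The balance of immunoproteasome against constitutive subunits was followed as a ratio within each library, which does not depend on how libraries are scaled. A ratio can still carry the relation with GC content, and the ratios were not corrected for it. Transcript GC was 58.5% for Psmb10 and 44.7% for Psmb7. The constitutive subunits themselves gave log2 changes of -0.09 for Psmb5, 0.07 for Psmb6 and 0.07 for Psmb7 (limma adjusted p = 0.30, 0.29 and 0.27). The ratio of Psmb10 to Psmb7 was 0.150, 0.137 and 0.134 with DMSO and 0.124, 0.126 and 0.130 with TVA, lower in all 3 TVA libraries. Its log2 difference was -0.14, with an exact permutation p of 0.1, the smallest that 3 against 3 libraries can give, and an adjusted p of 0.4 over the 5 ratios computed. The ratio of Psmb8 to Psmb5 was 1.043, 1.119 and 1.139 with DMSO and 1.193, 1.159 and 1.115 with TVA, overlapping (log2 difference 0.07, exact permutation p = 0.3). That of Psmb9 to Psmb6 was 0.824, 0.750 and 0.741 with DMSO and 0.814, 0.802 and 0.801 with TVA, also overlapping (log2 difference 0.06, exact permutation p = 0.4). The Psmb8 and Psmb5 transcripts were thus near parity, whereas Psmb10 stood far below Psmb7.

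Heavy chain to light chain ratios also overlapped between groups. They were not corrected for GC content either, which was 55.9% for H2-K1, 52.8% for H2-D1 and 41.2% for B2m. In the GC-corrected fit the log2 changes of the single genes were 0.036 for H2-K1, -0.05 for H2-D1 and -0.026 for B2m. H2-K1 to B2m was 0.507, 0.447 and 0.482 with DMSO and 0.459, 0.452 and 0.458 with TVA (log2 difference -0.07, exact permutation p = 0.4). H2-D1 to B2m was 0.380, 0.312 and 0.340 with DMSO and 0.318, 0.319 and 0.316 with TVA (log2 difference -0.11, exact permutation p = 0.4). B2m transcripts therefore outnumbered those of either heavy chain in every library. After adjustment over the 5 ratios all were at 0.4, and a design of this size cannot give a p below 0.1 for a ratio.

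**Figure D4:**
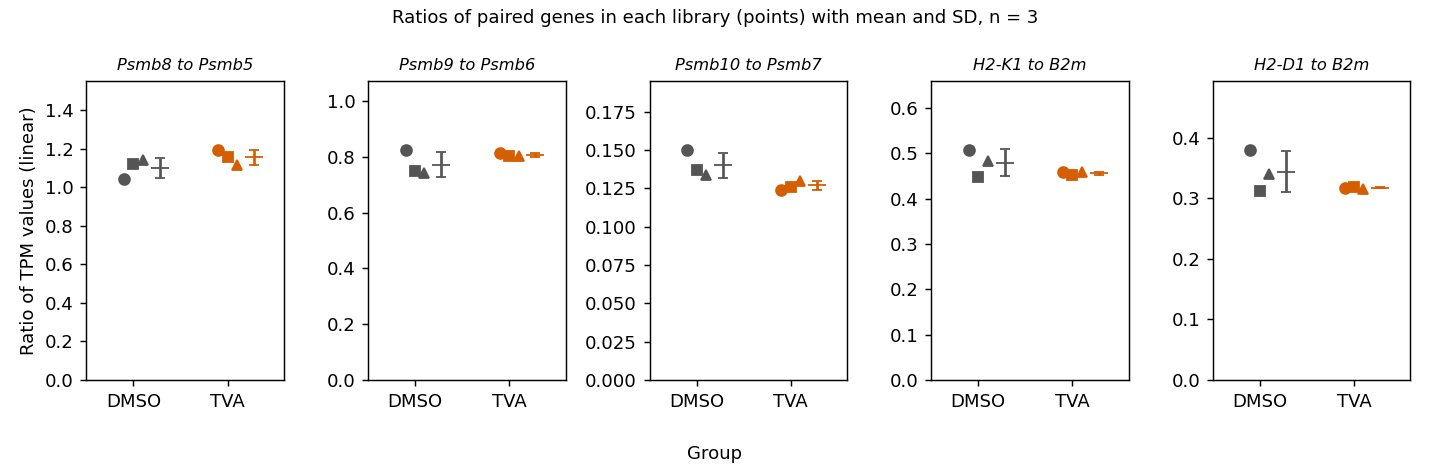
Ratio of TPM within each library for 3 immunoproteasome to constitutive subunit pairs and 2 heavy chain to B2m pairs; points are the 3 DMSO and 3 TVA libraries and bars the group means with SD (n = 3). Only Psmb10 to Psmb7 has groups that do not overlap, 0.134 to 0.150 with DMSO against 0.124 to 0.130 with TVA.

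The partners of the route were described by lists of genes with known roles. Of 9 genes for peptide loading and trimming, 1 rose and none fell, beside 5.28% and 3.23% of all genes tested, and the list's median log2 change was 0.092, beside 0.039 over all genes tested. The riser was Tapbpl, the tapasin-related editor of peptides, at 172, 169 and 155 TPM with DMSO and at 190.2, 188 and 188 TPM with TVA. Its log2 change was 0.19 (SE 0.046, limma adjusted p = 0.044), and it passed in 6 of 14 alternative settings. The list's count was 4 without DMSO replicate 2 (20.6% of all genes tested passed in that fit) and 0 without DMSO replicate 3 (2.71%). Calr, the calreticulin chaperone and the highest of the list, was at 742 to 775 TPM with DMSO and 753 to 757 TPM with TVA (log2 change 0.00, limma adjusted p = 1.0).

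No proteasome list had a gene past the threshold: 0 of 3 constitutive catalytic subunits, 0 of 11 other core subunits and 0 of 9 activators and assembly factors, with 0, 1 and 2 at an unadjusted p under 0.05 in limma, beside 31.8% of all genes tested. Without DMSO replicate 2, 1 other core subunit (Psmb4, lower) and 2 of the activators and assembly factors (Psme4 higher, Psmg4 lower) passed. In that fit 20.6% of all genes tested passed, and these genes are named because they formed those counts. The median log2 changes of the proteasome lists, in the order above, were 0.073, 0.044 and -0.018. Psma2, the highest of the other core subunits, had a log2 change of 0.08 (limma adjusted p = 0.37), and Pomp, the assembly chaperone, one of 0.08 (limma adjusted p = 0.39).

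Nonclassical class I genes present specialised ligands. The list under this heading was broader and also held H2-L, Fcgrt and Hfe. Of its 28 genes, 18 passed the filter on low values while 10 stayed under 1 TPM in all libraries, 3 of them listed at 0 throughout. None of the 18 passed the threshold, with 7 at an unadjusted p under 0.05 in limma, beside 31.8% of all genes tested, and their median log2 change was 0.023. H2-T23 (Qa-1), the ligand of CD94/NKG2 receptors and the highest of the list, was at 651, 643 and 630.0 TPM with DMSO and at 687, 659 and 667 TPM with TVA. The groups did not overlap, and the log2 change was 0.07 (limma adjusted p = 0.24). These genes share sequence with each other, as in H2-T22, of whose 50-base stretches 34.5% occur in other genes, and their values are uncertain to that extent. For H2-L, H2-Q8, H2-Q9 and H2-T9 the transcript set used had no entry, so it is not known which genes their reads could come from. Without DMSO replicate 2, 5 of the list passed, beside 20.6% of all genes tested, namely H2-T9, H2-T22, H2-L and Mr1 higher and H2-Q7 lower. With GC correction 1 passed (H2-T24, lower), beside 10.3% of all genes tested. With all genes above 0 TPM tested 1 of 25 did (H2-M2, lower), beside 2.95% of all genes in that fit. These genes are named because they formed those counts.

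Of 22 genes for factors that act on class I promoters, 1 rose and 1 fell, beside 5.28% and 3.23% of all genes tested. Irf2, an interferon regulatory factor, was at 35.4, 34.1 and 34.1 TPM with DMSO and at 40, 40.1 and 39.2 TPM with TVA. It rose by 0.20 on the log2 scale (SE 0.038, limma adjusted p = 0.025) and passed in 9 of 14 alternatives. Nfkb1, the p105/p50 subunit of NF-κB, was at 408, 366 and 366 TPM with DMSO and at 322, 330.4 and 327 TPM with TVA. It fell by 0.22 on the log2 scale (SE 0.049, limma adjusted p = 0.041), and it passed in 7 of 14 alternatives. Irf1, which carries the interferon signal to class I promoters, was at 84.4, 90.5 and 84.4 TPM with DMSO and at 95.4, 90.5 and 93.7 TPM with TVA. Its log2 change of 0.11 did not pass (limma adjusted p = 0.13). Rfx5, the DNA-binding subunit of the RFX complex, was at 10.8 to 11.4 TPM with DMSO and overlapped with TVA (log2 change -0.11, limma adjusted p = 0.39). Creb1, not named by the rule but given because its protein binds the TGACG core, was at 21.6 to 22.2 TPM with DMSO and 22.2 to 23.3 TPM with TVA (log2 change 0.06, limma adjusted p = 0.35). The list's count was 5 without DMSO replicate 1 (4 higher, 1 lower), beside 8.7% of all genes tested. It was 7 without DMSO replicate 2 (3 higher, 4 lower), beside 20.6%. With GC correction it was 6 (3 higher, 3 lower), beside 10.3%, and without DMSO replicate 3 it was 0, beside 2.71%.

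Of 11 interferon receptor and signalling genes, 1 fell and none rose, beside 3.23% and 5.28% of all genes tested. Socs3, a feedback inhibitor of cytokine signalling, was at 26.5, 21.4 and 24.3 TPM with DMSO and at 18.9, 19.2 and 18.4 TPM with TVA. It fell by 0.33 on the log2 scale (limma adjusted p = 0.037), and it passed in 7 of 14 alternatives. With GC correction its change was -0.02 (limma adjusted p = 0.83). The 1 gene of the list that passed was then Jak1, the receptor kinase, higher, beside 10.3% of all genes tested. Without DMSO replicate 1 Socs3 and Jak1 passed, beside 8.7% of all genes tested. Without DMSO replicate 2 Socs3 and Socs1 (lower) did, beside 20.6%, and without DMSO replicate 3 none, beside 2.71%. Ifng, the cytokine that induces the class I route and the highest of the list, was at 1626, 1657 and 1726 TPM with DMSO and at 1726, 1749 and 1737 TPM with TVA (log2 change 0.06, limma adjusted p = 0.33).

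Interferon targets outside the class I route moved in both directions: of 39, 6 rose and 5 fell, beside 5.28% and 3.23% of all genes tested, with a median log2 change of 0.017. Igtp, an interferon-inducible GTPase and the highest of the list, rose from 452 ± 18.9 TPM (SD, n = 3) in DMSO by a log2 change of 0.19 (limma adjusted p = 0.037). It passed in 5 of 14 alternatives. Samhd1, a dNTP hydrolase that restricts retroviruses, was at 108, 105 and 106 TPM with DMSO and at 135, 137 and 137 TPM with TVA. It rose by 0.36 (limma adjusted p = 0.0026) and passed in 14 of 14 alternatives. Among those that fell were Mx2, an antiviral GTPase, by 0.45, and the oligoadenylate synthetase genes Oas2, by 0.43, and Oas1a, by 0.37, on the log2 scale (limma adjusted p = 0.042, 0.021 and 0.038). These 3 were low, at 1.74, 1.33 and 5.71 TPM on average, and passed in 6, 9 and 6 of 13 alternatives. With median-of-ratios size factors the split of the list was 1 higher and 5 lower, beside 7.01% of all genes tested, and with GC correction 4 higher and 8 lower, beside 10.3%. The count of the list was 11, beside 8.51% of all genes tested. It moved to 15 without DMSO replicate 2, beside 20.6%, and to 2 without DMSO replicate 3, beside 2.71%. With any 1 of the TVA replicates left out it was 1, Samhd1. Tapbpl, Irf2, Nfkb1 and Socs3 likewise passed in none of the 3 fits that left out a TVA replicate, where 0.939%, 1.04% and 1.15% of all genes tested passed.

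**Figure D5:**
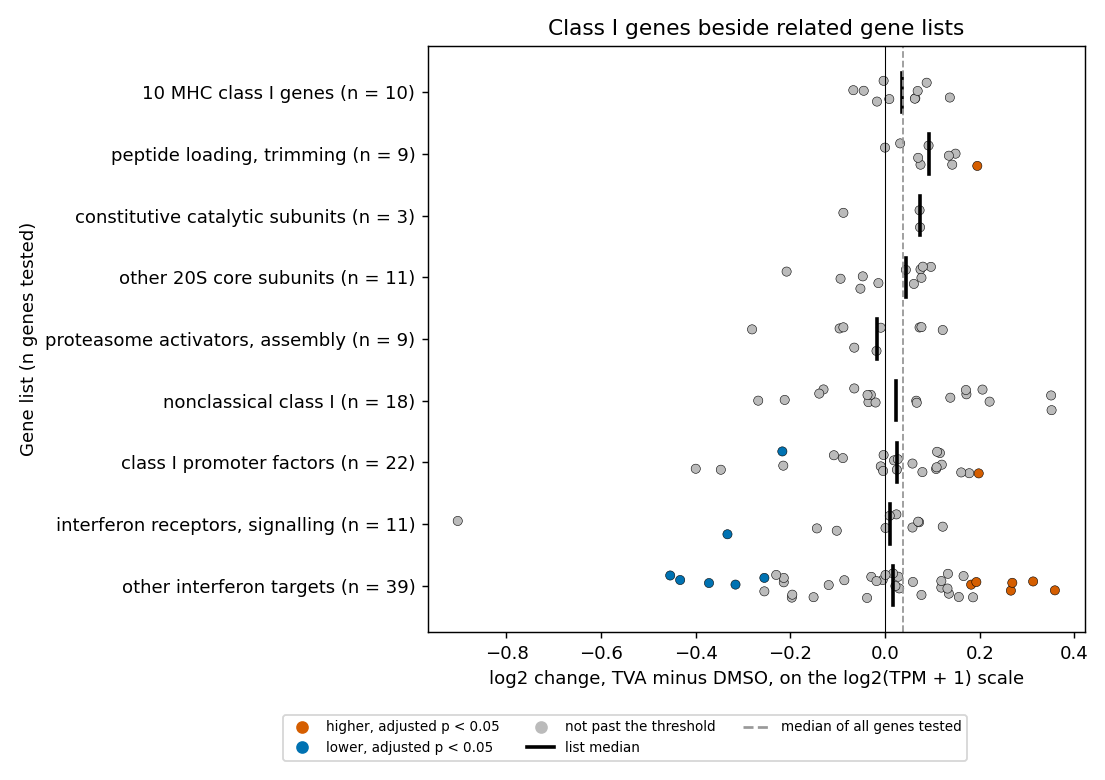
Fitted log2 change (TVA minus DMSO, on the log2(TPM + 1) scale) of the 10 class I genes and of 8 lists of related genes; each point is a gene, coloured where its limma adjusted p is under 0.05, black bars are list medians and the dashed line is the median of all genes tested. None of the 10 class I genes is coloured, and the 39 other interferon targets hold 6 higher and 5 lower genes.

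As a check of the label, the CD8 T cell markers summed to 2446 to 2649.6 TPM with DMSO and 2709 to 2738 TPM with TVA, and 9 of the 10 listed were analysed, of which 1 rose (Cd3g). Beside the counts of markers that follow, 5.28% of all genes tested were higher and 3.23% lower. Markers of other cells were far lower. The summed levels of the myeloid, B cell, CD4 T cell and NK cell lists did not overlap between the groups, and those of the red cell list did. The 14 myeloid markers summed to 51.3 to 53.9 TPM with DMSO and 69.2 to 72.9 TPM with TVA, with 2 of the 7 tested higher and 6 under 1 TPM in all libraries. The 10 B cell markers summed to 18.2 to 22.6 and 15.1 to 15.8 TPM, with 1 of 2 tested lower and 7 under 1 TPM throughout, among them Ms4a1. The 4 CD4 T cell markers summed to 15.1 to 16.2 and 12.2 to 14.2 TPM (1 of 3 tested lower), the 5 NK cell markers to 21.6 to 24.2 and 32.9 to 33.1 TPM (Eomes, also a gene of activated CD8 T cells, the only 1 tested and higher), and the 6 red cell markers to 37.9 to 61.4 and 48.6 to 58.7 TPM (1 of 4 tested lower). None of these other markers was listed at 0 in all libraries. Their part in the class I values was not tested, and in bulk RNA fewer cells of a type and less RNA per cell cannot be told apart.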

How the data were processed

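Mouse CD8+ T cell RNA was sequenced in 6 libraries (3 DMSO, 3 TVA), grouped by sample title. The authors deposited 1 table of TPM per gene symbol. The kit was SMARTER mRNA-Seq, per the labels, and the submitters' processing notes name STAR, RSEM and mm10, while versions and annotation are not given in the sources used here. TPM keeps no sequencing depth, so depth is unknown and no counting interval is given.

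Genes that reached 1 TPM in 3 or more libraries (10866 of 24589) were compared on log2(TPM + 1) with limma 3.58.1 in R 4.3.3 (trended prior variance, two-sided, Benjamini-Hochberg over all genes tested, threshold 0.05). The script was tested on simulated data. Ratios within libraries were compared by two-sided exact permutation tests. Alternatives changed the pseudocount (0.1), the filter, the scaling, the variance trend, a replicate block, a GC correction (loess, span 0.5) and the libraries used. The class I genes and lists were chosen with earlier results of these data known. Genes named were the 10, 8 genes always named (Psmb5, Psmb6, Psmb7, Calr, Irf1, Rfx5, Ifng, H2-T23; 1 further gene of the rule is not reported here), and from each list the gene of highest mean TPM and those past the threshold, at most the 4 of largest absolute change.

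Positions and promoters are from RefSeq GRCm38.p6, which is the build that mm10 names. Shared stretches and transcript GC were taken from GENCODE vM21 transcripts, and 97.4% of genes tested had a GC value. Promoters were compared with Biopython 1.88.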

Additional observations from a re-analysis of the deposited data

How the results depend on the processing

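Depth is unknown, so low genes could not be weighed by their counts. The number of all genes past the threshold, 925 (574 higher, 351 lower), was 494 with all genes above 0 TPM tested, 608 with a mean TPM of at least 10, 218 with the replicate block (93 higher, 125 lower) and 102 to 2242 with 1 library left out, the highest without DMSO replicate 2. It was 102 to 125 without a TVA replicate and 294 without DMSO replicate 3. Other scalings moved the split, to 270 higher and 492 lower with median-of-ratios size factors, which moved the median of all genes from 0.039 to 0.0043, and to 357 and 418 with quantile normalization. Of the 10 class I genes, 0 passed in the limma fit as reported, 1 with GC correction (Tap2), and 0 to 1 with 1 library left out (Tap1 without DMSO replicate 1). Of 140 single values of these genes under alternatives, 126 kept their direction and side of the threshold, 2 passed it and 12 changed sign. The sign of Tapbp changed to -0.029 with median-of-ratios and -0.00055 with quantile normalization, and GC correction gave 0.036 for H2-K1, -0.026 for B2m and 0.023 for Psmb10. With 1 library left out H2-K1 ran from -0.066 to 0.044, H2-D1 from -0.13 to 0.033, Psmb8 from -0.038 to 0.0018 and Tapbp from -0.024 to 0.069. The median of the 10 relative to all genes, -0.003, ran from -0.039 to 0.030. The cause of these shifts was not tested. Replicate numbers are shared by the groups without a stated pairing. Deviations of same-numbered libraries correlated at 0.16, 0.03 and -0.08, which gave no sign of pairing but cannot exclude it. The replicate block left 0 of the 10 past the threshold. The 39 other interferon targets held 11 past the threshold as reported, 2 with all genes above 0 TPM tested, 6 with a mean TPM of at least 10 (26 tested), 6 with median-of-ratios size factors and 3 with the block. The 5 ratios kept their sign when 1 library was left out, but they were not computed with the GC correction.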
